A study of Homo sapiens with 18 samples.

Results

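Early responses to 2 cancer drugs with different modes of action were compared in PC9, an established human lung adenocarcinoma line whose growth depends on mutated EGFR. The comparison took 6 of the 18 samples of the series, chosen by their titles: 3 libraries of cells given 1 µM erlotinib for 24 h and 3 of cells given 50 µM carboplatin for 72 h. The 3 libraries of untreated parental cells, which received the solvent DMSO, served as the reference for both drugs. All cells came from the same line and were kept in serum-containing RPMI-1640, and the RNA was depleted of DNA and selected for poly(A) tails. The carboplatin cells had their medium with drug renewed every day, whereas the erlotinib cells had no change of medium. Drug, dose, exposure time and feeding therefore change together, and their parts in any difference cannot be told apart. The titles give no exposure time for the parental cells, and a single reference cannot match both schedules. In a difference from parental cells the part of a drug cannot be told apart from culture time and feeding either. The labels do not say that the replicates were separate cultures, so a p-value speaks only of the scatter among these libraries, which may be technical.

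Erlotinib blocks the kinase of the EGF receptor. In EGFR-mutant cells this stops signalling through the RAS, RAF, MEK and ERK cascade and through PI3K and AKT, which ends the expression of ERK target genes and releases the FOXO transcription factors that AKT holds out of the nucleus. Carboplatin forms platinum adducts and crosslinks in DNA. These lesions block replication forks and transcription, and activate the ATR and ATM checkpoint kinases. They are repaired by nucleotide excision repair, the Fanconi anaemia proteins and homologous recombination.

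The gene reads of the 9 libraries ranged from 71800215 to 92609922. Levels are counts per 1000000 gene reads (CPM) after scaling, and a difference is a log2 difference with its standard error (± SE) from a single edgeR quasi-likelihood fit of the 9 libraries with 3 per group. A feature was called when its p-value, adjusted by Benjamini and Hochberg over all features tested, was under 0.05. Differences from parental cells are given beside the direct comparison, and since both drugs share the same parental libraries these values are not independent of each other. Spike-in RNA, which the labels say was added by cell number, gave 0.699, 0.7602 and 0.7403 reads per 100 gene reads in the erlotinib libraries, 0.417, 0.321 and 0.401 in the carboplatin libraries and 0.539, 0.524 and 0.538 in parental cells. The share was 1.94-fold higher with erlotinib than with carboplatin and the groups did not overlap (exact permutation test, 2-sided p = 0.1, the smallest that 3 against 3 can give). Scaling to these spike-ins moved the median difference of all genes from -0.04 to -1.02, a shift of -0.98. Differences are relative to total gene reads, and one between drugs from 0 to 0.98 changes sign when it is set against the spike-ins. For differences from parental cells the same shift was -0.32 with erlotinib and 0.66 with carboplatin. Positions above, near or below the parental level are therefore on the scale of gene reads, and small ones can change sign with spike-ins. In bulk RNA, less RNA per cell and fewer cells of a kind cannot be told apart.

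The libraries carried the markers of an epithelial line. EPCAM stood at 302, 291 and 293 CPM with erlotinib and 508, 534 and 482 with carboplatin. KRT8, KRT18 and KRT19 were above CDH1 in the mean of each group, and the lowest group mean of CDH1 was 225 ± 8.600 CPM (SD, n = 3), with carboplatin. NKX2-1, the lineage factor of lung adenocarcinoma, was nearly absent, at 0.385, 0.441 and 0.242 CPM with erlotinib and 0.826, 0.587 and 0.6997 with carboplatin. Summed over 9 fibroblast markers the level was 18.2 to 19.5 CPM with erlotinib, 18.2 to 24.9 with carboplatin and 4.58 to 4.65 in parental cells, and 5 of these markers were under 0.1 CPM in every library. The 7 endothelial markers summed to 117.5 to 123 CPM with erlotinib and 71.3 to 75.5 with carboplatin, against 33.8 to 37.3 in parental cells, mainly from PECAM1, CDH5 and ESAM. The 8 leukocyte markers summed to 52.7 to 52.9 CPM with erlotinib and 68.9 to 71.5 with carboplatin, against 33.3 to 36.3 in parental cells, with PTPRC, CD3E and NKG7 among those too low to be tested. The 8 neuron markers summed to 20.96 to 23.99 CPM with erlotinib and 29.2 to 41.4 with carboplatin, against 12.6 to 13.8 in parental cells, mainly from TUBB3 and MAP2.

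The responses to the drugs differed across most of the transcriptome. Of 16783 genes tested, 6670 (39.7%) were higher with erlotinib and 7187 (42.8%) were lower. Because so many genes were called, a second rule, chosen after these counts were seen, also asked for a difference of at least 2-fold, and it was met by 3280 genes in the direction of erlotinib (19.5%) and 3008 in the direction of carboplatin (17.9%). These shares are the background for the counts of each gene group.

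Some transcripts known to follow ERK activity were nearly absent with erlotinib and present with carboplatin. DUSP6, the phosphatase that switches ERK off and is itself made in response to ERK, read 0.677, 0.546 and 0.496 CPM in the erlotinib libraries, 54.7, 55.4 and 56.05 in the carboplatin libraries and 39.8, 40.2 and 39.2 in parental cells, a difference between drugs of -6.59 ± 0.07 (adjusted p = 2.5e-16). ETV5, an ETS factor induced by ERK, read 0.793, 0.955 and 0.713 CPM with erlotinib, 94.5, 96.00 and 91.8 with carboplatin and 59.8, 61.2 and 59.7 in parental cells, a difference of -6.83 ± 0.07 (adjusted p = 1.1e-16). For both genes every erlotinib library lay below every other library, and the carboplatin libraries lay above the parental ones, by 0.48 ± 0.05 for DUSP6 and 0.64 ± 0.04 for ETV5.

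Of the 15 ERK feedback inhibitors tested, 13 were lower with erlotinib, 9 of them by at least 2-fold, and 2, SPRY3 and RASA2, were higher. The median difference of the list was -1.96, against -0.04 for all genes. Against parental cells the median was -1.15 with erlotinib and 0.05 with carboplatin. SPRY4, a Sprouty inhibitor of receptor signalling, differed by -4.93 ± 0.05, and SPRED2, which restrains RAF, by -3.07 ± 0.05. Neither had moved much with carboplatin from the parental level, with differences of -0.04 and 0.05. DUSP1, a phosphatase also induced by stress, was above the parental level under both drugs, by 0.67 with erlotinib and 1.57 with carboplatin.

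Of 17 transcription factors and early genes driven by ERK, 16 were lower with erlotinib, 14 by at least 2-fold, with a median of -2.32. Against parental cells the median of this list was -0.42 with erlotinib and 0.84 with carboplatin. ETV4 differed by -5.24 ± 0.06, PHLDA1 by -4.04 ± 0.04 and FOSL1, an AP-1 subunit, by -3.79 ± 0.06. The list did not move as one against parental cells. FOSB, EGR1 and ATF3, genes that also answer to stress, were above the parental level with carboplatin by 3.01, 1.52 and 4.30, so that their difference between drugs came mainly from the carboplatin side. JUNB was the member that was not called, at 0.13 ± 0.18 (adjusted p = 0.5), but it was called higher without replicate c of carboplatin (0.38, adjusted p = 0.019).

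In the list of EGF family receptors, ligands and inhibitors 5 of 12 tested members were higher with erlotinib and 6 lower. EGFR itself was below the parental level under both drugs, at 430.5, 469 and 469 CPM with erlotinib and 319, 319 and 302 with carboplatin against 1003, 1122 and 1122 in parental cells. The carboplatin libraries were the lowest, without overlap, and the difference between drugs was 0.54 ± 0.05; it was not called in the fit of all 18 libraries (0.57, adjusted p = 0.13). ERBB2 and ERBB3, the partner receptors, were higher with erlotinib by 1.90 ± 0.04 and 1.86 ± 0.04. ERBB4 was close to absent, with 46 reads over the erlotinib libraries and 2 over the carboplatin libraries, a ratio of 20.7 with an exact counting interval of 5.41 to 176 (adjusted p = 0.00067). The ligands HBEGF and AREG were lower by -5.50 ± 0.06 and -4.11 ± 0.10, and TGFA and EREG by -1.29 ± 0.04 and -0.47 ± 0.06. The ligand EGF was higher, by 1.22 ± 0.10, and BTC was not called (-0.21 ± 0.13, adjusted p = 0.15), though it was called lower without replicate c of carboplatin (adjusted p = 0.044). HBEGF read 4.44, 5.53 and 5.07 CPM with erlotinib, 226, 233 and 224 with carboplatin and 177, 179.8 and 176 in parental cells.

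Among 16 tested receptor kinases and components of the insulin-like growth factor axis, 8 were higher and 8 lower with erlotinib. IGF1R and INSR, the receptors of this axis, were higher by 2.36 ± 0.04 and 3.05 ± 0.07, as were IGFBP3 (3.89 ± 0.04) and IGFBP5 (8.15 ± 0.07), which bind its ligands. IGFBP5 read 172, 172 and 171 CPM with erlotinib, 0.613, 0.718 and 0.475 with carboplatin and 0.596, 0.513 and 0.538 in parental cells. MET and AXL, receptors known for carrying cells past EGFR inhibition, were lower with erlotinib by -1.75 ± 0.04 and -1.03 ± 0.04.

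**Figure D1:**
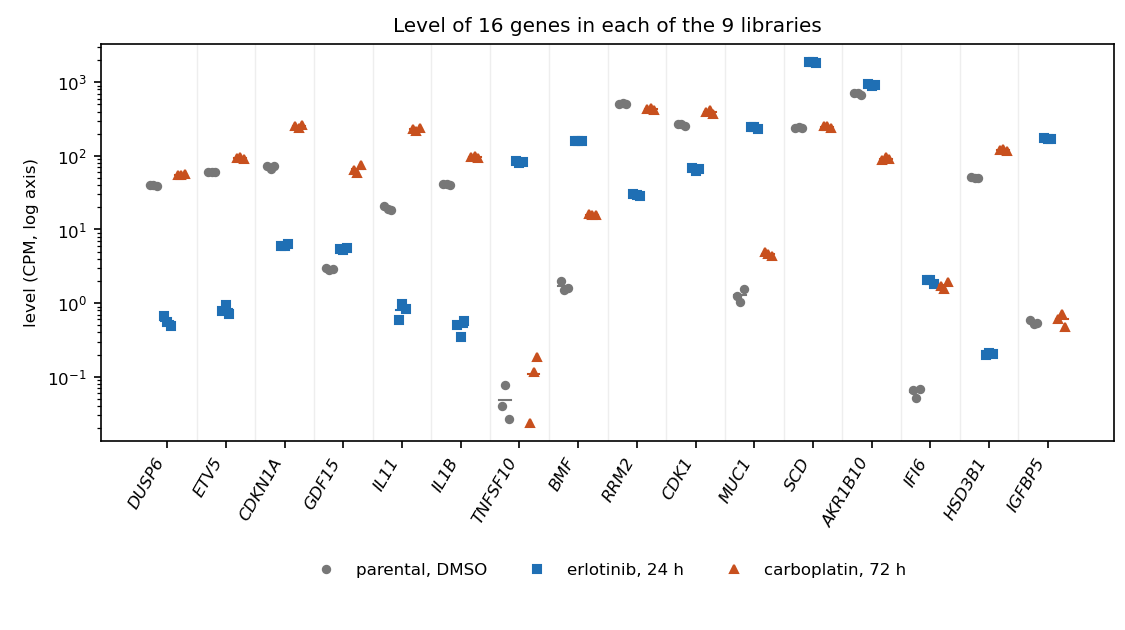
Level in CPM (log axis) of 16 genes in each library of parental cells (circles), erlotinib cells (squares) and carboplatin cells (triangles); the horizontal marks are group means. DUSP6, ETV5, CDKN1A, IL11, IL1B and HSD3B1 lie lowest with erlotinib and highest with carboplatin, and IGFBP5 lies at 171 to 172 CPM with erlotinib and under 1 CPM elsewhere.

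Targets of the FOXO factors and inhibitors of PI3K signalling were mostly higher with erlotinib. Of 18 tested, 15 were higher with erlotinib than with carboplatin and 2, KLF2 and KLF4, were lower. The median difference was 0.82, from 2.08 with erlotinib and 1.12 with carboplatin against parental cells, and it turned to -0.16 when set against the spike-ins. DEPP1, a FOXO target that acts in autophagy, read 123, 123 and 120.1 CPM with erlotinib, 8.66, 9.35 and 9.33 with carboplatin and 0.5697, 0.552 and 0.605 in parental cells, so that the 3 groups stood apart. PIK3IP1, an inhibitor of PI3K, differed between drugs by 3.90 ± 0.05, TSC22D3 by 2.15 ± 0.06 and BCL6, a transcriptional repressor, by 1.66 ± 0.03. FOXO4 was above the parental level by 3.59 ± 0.07 with erlotinib and 3.20 ± 0.07 with carboplatin.

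Genes of DNA replication were lower with erlotinib in 29 of 30 cases, 24 of them by at least 2-fold, with a median of -1.93; the member not called was E2F2. Against parental cells the list had a median of -2.69 with erlotinib and -0.60 with carboplatin. RRM2, the regulatory subunit of ribonucleotide reductase, read 30.6, 29.3 and 28.2 CPM with erlotinib, 437, 453 and 424 with carboplatin and 512, 519 and 503 in parental cells. The erlotinib libraries stood far below the other 6, and the difference between drugs was -3.90 ± 0.04 (adjusted p = 2.1e-16). CDC6, which loads the replicative helicase, differed by -3.95 ± 0.05, MCM2, a helicase subunit, by -2.63 ± 0.04, and FEN1, the flap nuclease, by -2.61 ± 0.04.

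A few replication genes were low under both drugs. POLA1, the catalytic subunit of DNA polymerase alpha, read 16.9, 17.6 and 17.1 CPM with erlotinib, 20.7, 22.1 and 20.8 with carboplatin and 94.5, 94.3 and 89.7 in parental cells, a difference between drugs of -0.30 ± 0.04 that was not called in the fit of all 18 libraries (adjusted p = 0.073). GINS1, a helicase cofactor, was below the parental level by -2.71 ± 0.06 with erlotinib and -1.71 ± 0.06 with carboplatin.

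Mitotic genes were lower with erlotinib in 30 of 30 cases, 19 by at least 2-fold, with a median of -1.07. Their position against parental cells differed from that of the replication genes. The median was -0.92 with erlotinib and 0.25 with carboplatin. CDK1, the kinase that drives entry into mitosis, read 67.8, 63.1 and 66.99 CPM with erlotinib, 388, 416 and 374 with carboplatin and 268, 274 and 254 in parental cells, which put parental cells between the drugs. PTTG1, the securin, was above the parental level with carboplatin by 1.18 ± 0.03 and differed between drugs by -1.66 ± 0.04. NEK2, a centrosome kinase, read 44.7, 42.04 and 42.6 CPM with erlotinib and 139.9, 146 and 136 with carboplatin against 45.7, 47.1 and 43.8 in parental cells. MKI67, the proliferation marker, differed by -1.07 ± 0.05 between drugs and by 0.16 ± 0.05 between carboplatin and parental cells.

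Some of the promoters of these genes hold known cell cycle motifs, and 4 such promoters are printed to show where the motifs lie. Each is the 250 bases before the RefSeq start site (GRCh38.p14, 5′ to 3′ on the strand of the gene), in lower case, with matches on either strand in capitals. For MCM6 and E2F1 the capitals mark the E2F motif, searched as TTTCGCGC, TTTGGCGC and TTTCCCGC, whose matches can overlap. For CDK1 and MKI67 they mark the CHR motif, TTTGAA.
MCM6 (chr2:135876444-135876693, minus strand): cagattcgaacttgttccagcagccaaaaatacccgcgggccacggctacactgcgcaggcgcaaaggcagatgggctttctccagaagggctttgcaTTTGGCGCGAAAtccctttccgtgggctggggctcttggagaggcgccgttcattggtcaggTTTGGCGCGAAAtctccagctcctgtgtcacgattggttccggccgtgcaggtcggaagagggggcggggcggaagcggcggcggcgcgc
E2F1 (chr20:33686386-33686635, minus strand): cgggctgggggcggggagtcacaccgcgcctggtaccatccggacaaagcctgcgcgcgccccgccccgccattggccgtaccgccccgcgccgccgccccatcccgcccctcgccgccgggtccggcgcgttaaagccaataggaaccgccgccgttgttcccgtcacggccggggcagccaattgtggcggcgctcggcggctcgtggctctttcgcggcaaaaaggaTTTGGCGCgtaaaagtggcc
CDK1 (chr10:60778081-60778330, plus strand): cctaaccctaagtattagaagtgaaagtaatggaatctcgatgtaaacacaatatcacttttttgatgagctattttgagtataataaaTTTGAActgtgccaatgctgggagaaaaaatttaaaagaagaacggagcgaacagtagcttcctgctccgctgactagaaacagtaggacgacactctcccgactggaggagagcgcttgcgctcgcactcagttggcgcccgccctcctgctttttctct
MKI67 (chr10:128126424-128126673, minus strand): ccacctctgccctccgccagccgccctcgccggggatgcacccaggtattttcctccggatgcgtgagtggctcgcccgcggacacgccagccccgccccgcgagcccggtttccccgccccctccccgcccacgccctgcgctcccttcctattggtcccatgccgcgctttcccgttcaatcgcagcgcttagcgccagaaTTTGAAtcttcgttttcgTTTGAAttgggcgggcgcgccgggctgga
An E2F match was present in 13 of 26 replication promoters found in the table and in 1 of 24 mitotic ones, against 3.68% of the 12617 promoters of tested genes and 2.38% of all 27305. A CHR match was present in 13 of 24 mitotic promoters and 1 of 26 replication promoters, against 8.77% of the promoters of tested genes and 13.6% of all. These matches describe the letters in this window only. Of the printed genes, MCM6 differed between drugs by -2.46 ± 0.05 and E2F1 by -2.59 ± 0.05. An E2F match was also present in replication genes with small differences, POLA1 (-0.30), LIG1 (-0.18) and E2F2 (-0.02, not called).

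Genes that repair DNA crosslinks were also lower with erlotinib. Of 27 Fanconi anaemia and homologous recombination genes, 24 were lower, 17 by at least 2-fold, and 2 were higher, with a median of -1.58. XRCC2, a recombination protein, differed by -3.11 ± 0.06, EXO1, the end-resecting nuclease, by -2.87 ± 0.06, and FANCI, a partner of FANCD2, by -1.92 ± 0.04. On the scale of gene reads the median of the list was below the parental level under both drugs, at -1.72 with erlotinib and -0.52 with carboplatin. BRCA1 was near it with carboplatin (-0.05 ± 0.07) and far below it with erlotinib (-1.94 ± 0.07). FANCL, the ubiquitin ligase of the Fanconi core complex, was the member that stood furthest above it with carboplatin, by 1.18 ± 0.06, with 46.5, 47.3 and 42.02 CPM against 20.5, 20.6 and 18.7 in parental cells and 15.8, 14.9 and 14.9 with erlotinib. FANCC and FANCF, 2 other core members, had the lowest levels with carboplatin and were higher with erlotinib by 0.75 ± 0.05 and 1.08 ± 0.07.

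In the checkpoint list 14 of 18 genes were lower with erlotinib and 3, WEE1, TP53BP1 and ATM, were higher. CLSPN, the claspin adaptor of CHEK1, differed by -4.18 ± 0.06, CDC25A by -4.03 ± 0.06 and CHEK1 by -2.04 ± 0.05. Nucleotide excision repair was mixed, with 5 higher and 8 lower of 15, and a median of -0.15. ERCC5, the XPG nuclease, was above the parental level by 2.34 ± 0.05 with erlotinib and 1.38 ± 0.05 with carboplatin. Of 20 replication-dependent histone genes tested, 16 were lower with erlotinib and none was higher, with a median of -1.54. Against parental cells their median was 0.55 with erlotinib and 2.23 with carboplatin. H2BC12 read 50.5, 50.2 and 48.5 CPM with erlotinib, 156, 150.1 and 162 with carboplatin and 53.5, 51.1 and 55.8 in parental cells. Most replication-dependent histone transcripts lack a poly(A) tail and resemble each other closely, so that in poly(A)-selected libraries their values are uncertain.

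Genes known for growth arrest, cell death and metabolism in the DNA damage response did not move as a group. CDKN1A, which encodes the CDK inhibitor p21, had the largest difference of the list of arrest and feedback genes: it read 5.996, 6.06 and 6.43 CPM with erlotinib, 253, 239.7 and 259.8 with carboplatin and 71.8, 67.1 and 72.5 in parental cells, a difference between drugs of -5.35 ± 0.05 (adjusted p = 9.5e-17). Parental cells lay between the drugs without overlap. MDM2, a ubiquitin ligase, was not called between carboplatin and parental cells (-0.09 ± 0.05, adjusted p = 0.098), and read 23.3, 24.9 and 24.1 CPM with erlotinib and 40.2, 44.7 and 40.8 with carboplatin. Of the 12 arrest and feedback genes 3 were higher and 7 lower with erlotinib, of 10 death genes 2 and 7, and of 11 metabolic and repair genes 4 and 5, with medians of -0.21, -0.34 and 0.07.

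GDF15, a stress cytokine, read 5.44, 5.23 and 5.54 CPM with erlotinib, 64.01, 57.9 and 75.1 with carboplatin and 3.02, 2.86 and 2.88 in parental cells, a difference of -3.60 ± 0.09. The list of ATF4 and ER stress genes was split, with 9 of 20 higher with erlotinib, 10 lower and a median of -0.04. Among the 10, ATF3 (-3.00 ± 0.06), SESN2 (-1.85 ± 0.06) and PPP1R15A (-1.29 ± 0.03), stress genes that ATF4 induces, were higher with carboplatin. TP53INP1, which acts in autophagy and cell death, went the other way, at 42.95, 43.7 and 44.1 CPM with erlotinib and 7.67, 7.94 and 6.39 with carboplatin against 0.305, 0.231 and 0.336 in parental cells. AEN, an apoptosis-linked nuclease, was lower with erlotinib by -3.75 ± 0.05 and stood near the parental level with carboplatin (-0.21 ± 0.04).

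Other brakes and drivers of the cell cycle also separated the drugs. Cyclin E genes CCNE1 and CCNE2 were lower with erlotinib by -2.95 ± 0.04 and -3.47 ± 0.06. CCND1, the D-type cyclin, was below the parental level under both drugs, by -1.93 ± 0.03 with erlotinib and -1.09 ± 0.03 with carboplatin. CDKN1B, which encodes p27, was higher with erlotinib by 0.93 ± 0.04, and CDKN2B, which encodes p15, was above the parental level by 3.37 ± 0.05 with erlotinib and 2.89 ± 0.05 with carboplatin. Of 14 CDK inhibitors and cyclins 4 were higher with erlotinib and 9 lower.

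Of 16 BCL2 family genes 5 were higher with erlotinib, 7 were lower and 4 were not called. BMF, a BH3-only killer protein, read 159.9, 159 and 159 CPM with erlotinib, 16.03, 15.9 and 15.97 with carboplatin and 2.001, 1.502 and 1.63 in parental cells, a difference between drugs of 3.32 ± 0.05. BCL2L11, which encodes BIM, was higher with erlotinib by 0.72 ± 0.04 and BBC3, which encodes PUMA, by 0.98 ± 0.12. PMAIP1, which encodes NOXA, another BH3-only protein, was lower by -0.51 ± 0.04 and above the parental level under both drugs (1.26 and 1.78). BCL2L1, which encodes the survival protein BCL-XL, was lower with erlotinib by -1.06 ± 0.03.

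The death ligand TNFSF10, known as TRAIL, read 85.7, 80.4 and 82.7 CPM with erlotinib, 0.0236, 0.117 and 0.185 with carboplatin and 0.0398, 0.07701 and 0.0269 in parental cells, a difference of 9.60 ± 0.16. With carboplatin its difference from parental cells was not called (1.10 ± 0.59, adjusted p = 0.11). Among its receptors, TNFRSF10A and TNFRSF10B, the death receptors, were lower with erlotinib by -2.93 ± 0.07 and -1.69 ± 0.03, and the decoy receptor TNFRSF10D read 11.7, 12.1 and 11.4 CPM with erlotinib, 183, 193 and 179.9 with carboplatin and 48.7, 48.01 and 48.1 in parental cells. The decoy TNFRSF10C was lower by -1.02 ± 0.34 (adjusted p = 0.013; 0.064 with DESeq2, 0.086 in the 18-library fit, 0.068 without replicate c of erlotinib and 0.069 without replicate b of carboplatin) and the soluble decoy TNFRSF11B higher by 1.11 ± 0.19. Of 14 tested genes of death ligands, receptors and their adaptors 6 were higher with erlotinib and 6 lower, with a median of -0.09.

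Several cytokine genes were among the largest differences in the data, and most of these were lower with erlotinib. IL11, a cytokine of the IL-6 family, read 0.595, 0.966 and 0.822 CPM with erlotinib, 232, 217 and 236 with carboplatin and 20.7, 19.1 and 18.2 in parental cells, a difference of -8.16 ± 0.09 (adjusted p = 3.2e-16). IL1B read 0.502, 0.346 and 0.5804 CPM with erlotinib, 97.1, 99.2 and 94.1 with carboplatin and 42.1, 41.4 and 39.9 in parental cells. Parental cells lay between the drugs for both. IL1A differed by -7.13 ± 0.08, CSF2 by -7.61 ± 0.24, LIF by -2.16 ± 0.04 and IL6 by -2.02 ± 0.05. CSF3 had 432 reads over the 3 carboplatin libraries and 0 over the 3 erlotinib libraries, at least 160-fold lower with erlotinib when 3 reads are allowed over the erlotinib group.

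Other members went the other way. CXCL10, a chemokine induced by interferon, read 6.03, 5.86 and 5.92 CPM with erlotinib, 0.236, 0.0913 and 0.0924 with carboplatin and 0, 0.0385 and 0 in parental cells. CSF1, the macrophage growth factor, was higher with erlotinib by 1.79 ± 0.06. Of 22 chemokines and cytokines tested 9 were higher with erlotinib and 12 lower, with a median of -0.57, and the medians against parental cells were 0.98 with erlotinib and 2.64 with carboplatin.

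Genes of the NF-kB pathway were split, 9 higher and 8 lower of 17. NFKBIA, the inhibitor that NF-kB induces, read 97.5, 98.2 and 94.6 CPM with erlotinib, 43.2, 40.4 and 40.3 with carboplatin and 26.2, 25.2 and 25.3 in parental cells. NFKBIZ, a nuclear cofactor, was highest with carboplatin, at 61.4, 64.9 and 60.2 CPM against 18.5, 18.1 and 18.8 with erlotinib. ICAM1, an adhesion molecule, was above the parental level by 3.18 ± 0.04 with erlotinib and 2.06 ± 0.04 with carboplatin.

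Promoters of NFKBIA and CXCL10 are printed in the same form because both genes were highest with erlotinib, with the NF-kB motif GGAATTTCC in capitals; both hold it on the other strand, as GGAAATTCC.
NFKBIA (chr14:35404750-35404999, minus strand): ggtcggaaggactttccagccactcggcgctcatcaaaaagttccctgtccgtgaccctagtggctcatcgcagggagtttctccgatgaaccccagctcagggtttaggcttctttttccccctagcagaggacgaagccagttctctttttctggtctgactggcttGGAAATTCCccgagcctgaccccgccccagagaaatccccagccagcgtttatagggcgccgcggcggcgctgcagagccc
CXCL10 (chr4:76023498-76023747, minus strand): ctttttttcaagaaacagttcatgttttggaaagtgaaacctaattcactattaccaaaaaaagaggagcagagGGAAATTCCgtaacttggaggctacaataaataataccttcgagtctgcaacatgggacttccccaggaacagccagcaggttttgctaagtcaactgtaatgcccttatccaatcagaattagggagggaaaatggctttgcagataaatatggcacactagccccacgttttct
A match was present in 5 of 15 promoters of the pathway list and 7 of 17 promoters of the cytokine list, against 0.436% of the promoters of tested genes and 0.428% of all. Genes of these lists with a match were found on both sides of the comparison. On the scale of gene reads most were higher with erlotinib, such as CXCL6 (1.95 ± 0.18). Those lower were NFKBIZ (-1.75), CXCL8 (-0.68 ± 0.06) and CXCL2 (-0.92 ± 0.11). Of those higher, REL (0.78), CXCL1 (0.67) and CXCL5 (0.61) lay under 0.98 and change sign when set against the spike-ins.

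Interferon response genes were mostly higher with erlotinib, 20 of 30 tested, 15 by at least 2-fold, with 6 lower and a median of 1.04, which was 0.06 when set against the spike-ins. The medians against parental cells were 2.33 with erlotinib and 1.24 with carboplatin. GBP1, a guanylate-binding protein, read 139, 132 and 137 CPM with erlotinib, 22.2, 22.5 and 21.5 with carboplatin and 5.64, 5.08 and 5.06 in parental cells. IFIT2 differed by 2.51 ± 0.07 and STAT2, a subunit of the interferon transcription factor, by 1.26 ± 0.04. MX1, an antiviral GTPase, was above the parental level with erlotinib (2.22 ± 0.14) and below it with carboplatin (-1.54 ± 0.20).

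The response was not uniform. IFI6 rose under both drugs, by 4.99 ± 0.21 and 4.79 ± 0.21 from the parental level, and its difference between drugs was 0.20 ± 0.12 (adjusted p = 0.15; 95% interval -0.07 to 0.47); it was called in a fit of 16 libraries (adjusted p = 0.021). ISG20, an exonuclease, read 0.688, 0.777 and 0.556 CPM with erlotinib, 8.23, 7.38 and 9.13 with carboplatin and 0.424, 0.539 and 0.592 in parental cells. TLR3, the receptor for double-stranded RNA, read 8.34, 8.34 and 8.404 CPM with erlotinib, 0.0826, 0.1696 and 0.0396 with carboplatin and 0.517, 0.526 and 0.632 in parental cells, so that the drugs fell on either side of parental cells. CGAS, the sensor of cytosolic DNA, was lower with erlotinib by -1.60 ± 0.05. Of 17 tested sensors and signalling components 8 were higher and 6 lower with erlotinib; IFNB1 and the lambda interferons were too low to be tested.

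Antigen presentation genes were higher with erlotinib in 14 of 15 cases and lower in 1, TAP2, with a median of 0.77 that became -0.23 when set against the spike-ins. PSMB9, an immunoproteasome subunit, differed by 2.92 ± 0.07, and TAPBP, which loads peptide onto class I molecules, by 2.18 ± 0.06. Reads of the class I genes can be split between close copies, which leaves their single values uncertain.

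**Figure D2:**
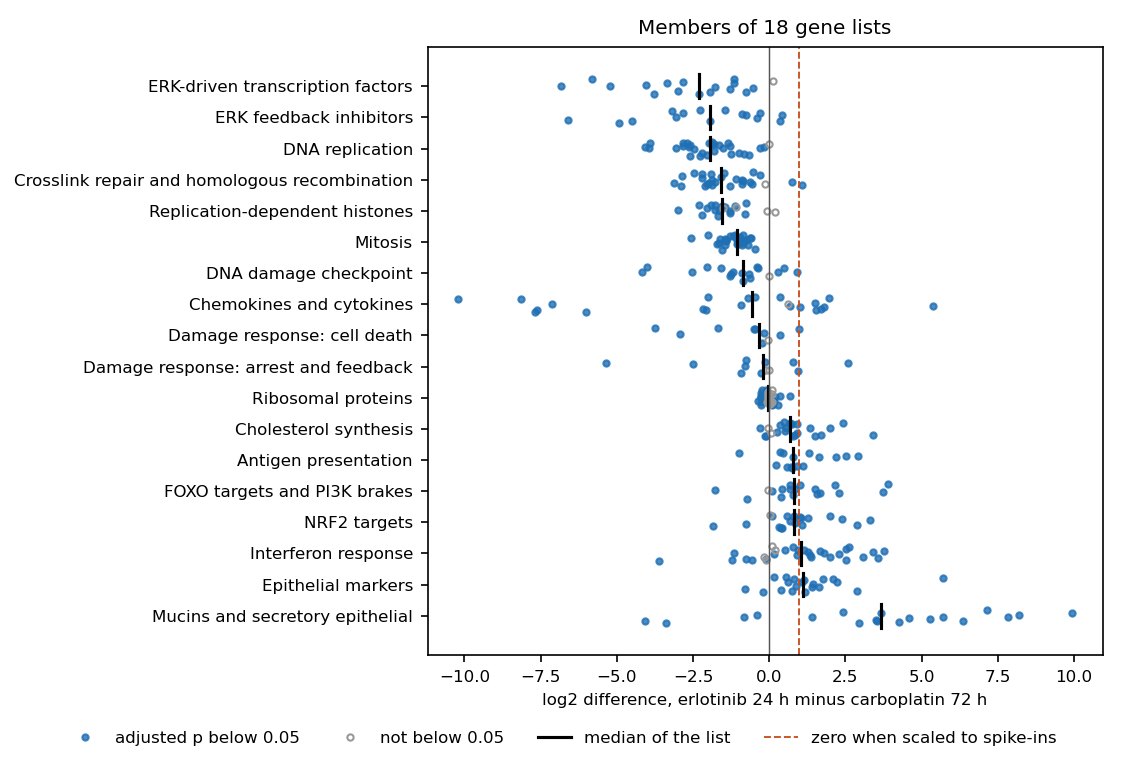
Log2 difference, erlotinib minus carboplatin, of each tested member of 18 gene lists; filled points passed an adjusted p of 0.05, the black mark is the median, and the dashed line is the point that becomes 0 when libraries are scaled to spike-ins. The ERK, replication, repair, histone and mitosis medians lie between -2.32 and -1.07, and the mucin median lies at 3.68.

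Targets of NRF2, the regulator of oxidative and electrophile defence, were higher with erlotinib in 16 of 19 cases and lower in 2. The medians against parental cells were 0.12 for erlotinib and -0.94 for carboplatin, whereas the summed level of the list was 21428 to 22256 CPM with erlotinib, 11536 to 11798 with carboplatin and 14468 to 14622 in parental cells. AKR1B10, an aldo-keto reductase, read 935, 900.4 and 907 CPM with erlotinib, 88.4, 96.9 and 90.8 with carboplatin and 708, 704 and 678 in parental cells. TKT, an enzyme of the pentose phosphate pathway, was higher with erlotinib by 2.38 ± 0.05 and below the parental level with carboplatin by -1.31 ± 0.05. NFE2L2, which encodes NRF2, was not called (0.03 ± 0.03, adjusted p = 0.4), though DESeq2 called it higher (0.076, adjusted p = 0.049). OSGIN1 and SRXN1 were lower with erlotinib. The list median of 0.83 became -0.16 when set against the spike-ins, and AKR1C1 and AKR1C2 share near-identical sequence, which leaves their single values uncertain.

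Of 19 tested genes of platinum transport and thiol defence, which include glutathione enzymes, 11 were higher with erlotinib and 7 lower. ATP7B, a copper exporter known for exporting platinum drugs, read 21.6, 22.5 and 21.6 CPM with erlotinib, 1.92, 2.18 and 1.901 with carboplatin and 7.51, 8.099 and 8.300 in parental cells, without overlap between any groups. ATP7A, its homologue, differed by 2.47 ± 0.05, and the efflux pump ABCC1 by 1.55 ± 0.03. SLC31A1, the copper importer CTR1, was below the parental level by -0.50 ± 0.04 with erlotinib and -0.33 ± 0.04 with carboplatin. MT2A, a metallothionein, was lower with erlotinib by -2.29 ± 0.12 and stood at -0.04 ± 0.11 from parental cells with carboplatin. Aldehyde dehydrogenases were higher with erlotinib in 15 of 19 cases. ALDH3A1 read 556, 573 and 562 CPM with erlotinib, 23.6, 21.02 and 26.03 with carboplatin and 178, 165 and 184 in parental cells.

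Lipid synthesis genes were mostly higher with erlotinib, 18 of 23 in the cholesterol list and 10 of 14 in the fatty acid list. SCD, the desaturase that makes monounsaturated fatty acids, read 1874, 1860 and 1840 CPM with erlotinib, 251, 258 and 236 with carboplatin and 241, 244 and 241 in parental cells, which put carboplatin close to parental cells. SREBF1, the regulator of fatty acid synthesis, differed by 2.42 ± 0.09. The medians of 0.69 and 0.69 became -0.29 and -0.30 when set against the spike-ins.

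Genes of secretory epithelium showed the largest list median in the direction of erlotinib, 3.68, with 15 of 19 tested members higher, 15 of them by at least 2-fold, and it stayed at 2.74 when set against the spike-ins. MUC1, a membrane mucin, read 244, 245 and 231 CPM with erlotinib, 4.88, 4.59 and 4.42 with carboplatin and 1.26, 1.03 and 1.56 in parental cells. AGR2, a disulfide isomerase of secretory cells, differed by 3.51 ± 0.04, and VTCN1, an immune checkpoint ligand of glandular cells, by 6.37 ± 0.09. CP, which encodes the copper protein ceruloplasmin, read 40.1, 41.7 and 41.7 CPM with erlotinib and 0.142, 0.196 and 0.0792 with carboplatin. SCGB1A1, the secretoglobin of airway club cells, had 399 reads over the 3 erlotinib libraries and 0 over the 3 carboplatin libraries, at least 120-fold higher with erlotinib when 3 reads are allowed over the carboplatin group. The members lower with erlotinib were CEACAM1 (-4.08 ± 0.13), TFF1, LCN2 and SLPI.

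Epithelial markers were higher with erlotinib in 18 of 20 cases, with EPCAM and DSP lower, and keratins in 12 of 15. The epithelial median of 1.09 became 0.11 when set against the spike-ins, and the keratin median of 0.91 became -0.07. KRT13 differed by 3.36 ± 0.04 and KRT19 by 1.77 ± 0.05. ELF3, an epithelial transcription factor, read 673, 663 and 651 CPM with erlotinib, 142, 141 and 141 with carboplatin and 22.01, 23.1 and 23.7 in parental cells. Mesenchymal genes were split, 10 higher and 9 lower of 21. SNAI1, a repressor of epithelial genes, read 2.57, 2.12 and 2.31 CPM with erlotinib, 23.8, 23.01 and 25.1 with carboplatin and 1.84, 1.66 and 1.91 in parental cells. FN1, fibronectin, was above the parental level by 1.70 ± 0.03 with erlotinib and 2.32 ± 0.04 with carboplatin. SOX2, a factor of airway progenitors, read 20.3, 20.4 and 21.2 CPM with erlotinib and 0.826, 0.678 and 0.779 with carboplatin. Of 5 endothelial markers tested 3, PECAM1 (2.63 ± 0.05), VWF and CDH5, were higher with erlotinib and 1, ESAM (-1.29 ± 0.07), was lower, and of 4 leukocyte markers 2 were higher and 2 lower; PTPRC, TEK and CLDN5 were too low to be tested. The part of other cell types in these values was not tested.

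Housekeeping lists had small medians on the scale of gene reads. Of 38 ribosomal protein genes 9 were higher and 14 lower with erlotinib, none by 2-fold, with a median of -0.03. Of 25 nuclear oxidative phosphorylation genes 4 were higher and 17, most of the list, were lower, with a median of -0.19. Set against the spike-ins the medians of the lists were -1.01 and -1.17. ATP5F1B, the catalytic subunit of ATP synthase, had the smallest p of the second list, at -0.99 ± 0.03. Mitochondrial transcripts took 6.77, 6.45 and 6.28% of gene reads with erlotinib, 6.26, 6.01 and 5.94% with carboplatin and 4.35, 4.08 and 4.34% in parental cells. The erlotinib libraries were all above the carboplatin ones (exact permutation p = 0.1, 2-sided), and both drugs lay above parental cells. The share of ribosomal protein genes was 5.98, 5.898 and 5.83% with erlotinib and 6.08, 6.07 and 6.05% with carboplatin (exact permutation p = 0.1, 2-sided).

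Some of the largest single differences fell outside these lists. HSD3B1, an enzyme of steroid hormone synthesis, read 0.198, 0.2100 and 0.206 CPM with erlotinib, 121, 123 and 115 with carboplatin and 51.8, 50.2 and 49.8 in parental cells, a difference of -9.18 ± 0.07 (adjusted p = 2.8e-17). TERT, the catalytic subunit of telomerase, read 0.0117, 0.105 and 0.0967 CPM with erlotinib, 25.5, 23.2 and 31.2 with carboplatin and 19.4, 19.4 and 22.6 in parental cells, so that it was nearly lost with erlotinib. HAS3, a hyaluronan synthase, differed by -6.46 ± 0.08 and IL1R2, a decoy receptor for IL-1, by -6.83 ± 0.09. In the direction of erlotinib, ALPG, a placental-type alkaline phosphatase with close copies, read 101, 108 and 104 CPM against 0.177, 0.261 and 0.409 with carboplatin. SEMA5A, a semaphorin, read 175, 177 and 174 CPM with erlotinib, 0.425, 0.665 and 0.541 with carboplatin and 12.4, 10.8 and 12.1 in parental cells. CES1, a carboxylesterase, and KRT4 were also among the 12 highest, with differences of 9.24 ± 0.21 and 8.52 ± 0.19.

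Genes on opposite sides of parental cells included several already described. Those higher with erlotinib and lower with carboplatin were led by NAALADL2, LRP1B, EDIL3, SEMA5A, CES1 and SSBP2. LRP1B, a large lipoprotein receptor, read 21.5, 19.8 and 21.5 CPM with erlotinib, 0.0236, 0.0261 and 0.0396 with carboplatin and 0.782, 0.809 and 0.632 in parental cells. NAALADL2 had 3940 reads over the erlotinib libraries and 1 over the carboplatin libraries, a ratio of 3544 with an exact counting interval of 636 to 140011. Those lower with erlotinib and higher with carboplatin were led by IL11, TNFSF15, TRPV3, TNFRSF10D, IL37 and IL6R. TNFSF15, a cytokine of the TNF family, read 1.61, 2.06 and 1.87 CPM with erlotinib, 122, 123 and 114 with carboplatin and 22.96, 24.2 and 25.7 in parental cells, and IL6R, the IL-6 receptor, differed between drugs by -5.40 ± 0.07.

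Other genes left the parental level together, with a difference between drugs whose 95% interval lay within ±0.58. GABARAPL1, an autophagy protein, read 203, 198 and 197 CPM with erlotinib, 188, 193 and 180.3 with carboplatin and 24.6, 24.2 and 21.6 in parental cells, and the interval of its difference between drugs was -0.00 to 0.19, which was not called (adjusted p = 0.068) but was in the fit of the 6 libraries alone (adjusted p = 0.0072). PRSS8, NEURL3, NR4A2, FOXO4 and TMEM86A were the others that led this group on the higher side. On the lower side LRP8, a receptor for apolipoprotein E, read 23.4, 22.2 and 22.9 CPM with erlotinib, 20.02, 21.3 and 20.04 with carboplatin and 102, 107 and 104 in parental cells, with an interval of 0.07 to 0.25, and SH3RF3, ABTB3, PBX3, WDR4 and POLA1 were the others. Their choice used these contrasts, so the values are a description.

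**Figure D3:**
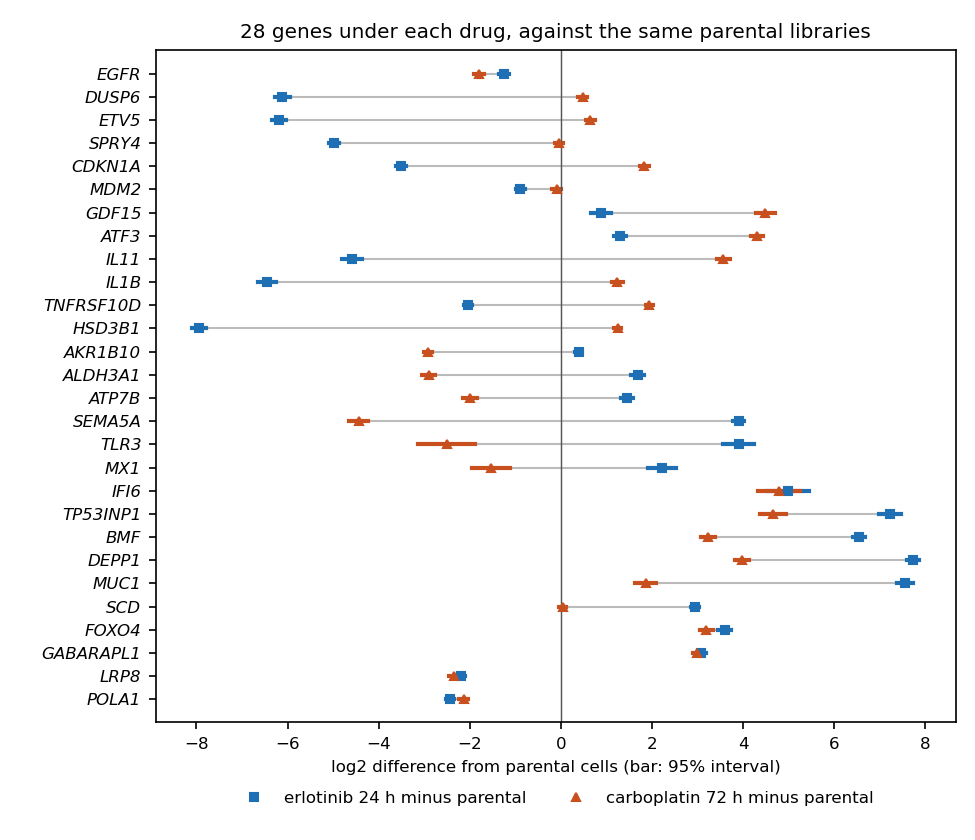
Log2 difference from parental cells for 28 genes, with erlotinib (squares) and with carboplatin (triangles); bars are 95% intervals from the fit and both drugs share the parental libraries. SEMA5A lies at 3.90 with erlotinib and -4.44 with carboplatin, and IL11 at -4.59 and 3.56, while GABARAPL1 and LRP8 lie close together.

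The difference between drugs changed with the length of the gene. Length here is the genomic span from the GENCODE release 29 annotation, introns included, which was found for 15539 of the tested genes (92.6%) and may not be the annotation of the authors, and the length classes were chosen after the data were seen. The median difference was -0.15 in the 1670 genes of up to 5 kb, -0.01 in the 2567 genes of 50 to 100 kb, 1.00 in the 914 genes of 200 to 500 kb and 2.40 in the 193 genes over 500 kb. Of the longest class 144 genes (74.6%) were at least 2-fold higher with erlotinib and 16 (8.29%) at least 2-fold lower, against 19.5% and 17.9% of all genes.

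Most of this came from the carboplatin side. In the longest class the median against parental cells was -1.93 with carboplatin and 0.39 with erlotinib, and in the shortest class it was 0.37 and 0.25. Long genes among those named include LRP1B (1900 kb), NAALADL2 (1372 kb), SEMA5A (511 kb) and EDIL3 (444 kb). Among genes of at least 1 CPM in parental cells, an alternative chosen after seeing the data, the median of the longest class was 2.14 over 124 genes, and 1.42 when all were set against the spike-ins. Genes are not replicates, so these medians are a description of the 9 libraries.

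**Figure D4:**
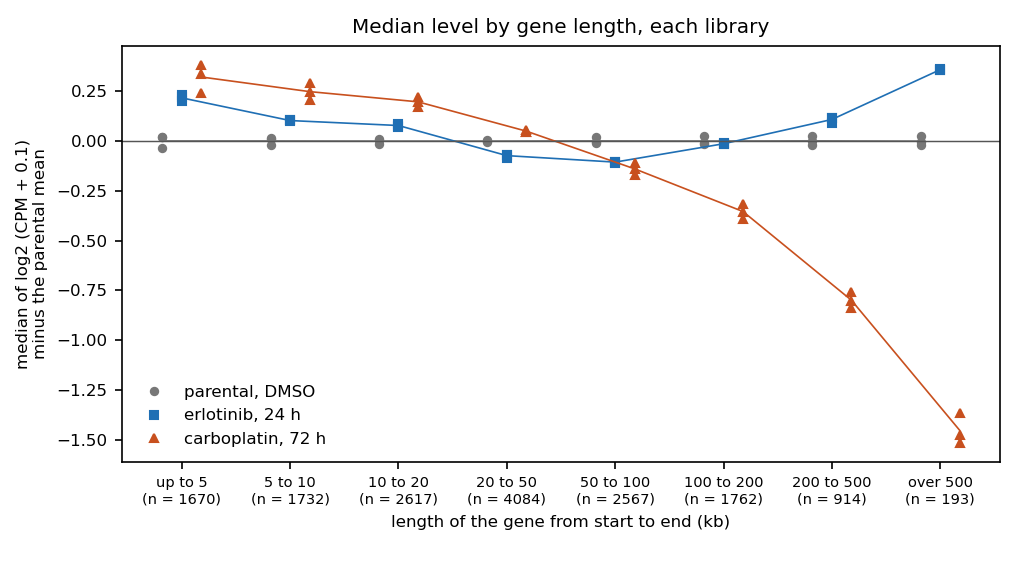
Median over genes of log2 (CPM + 0.1) minus the parental mean, in 8 classes of gene length (kb), for each library of the 3 groups; lines join group means. The carboplatin libraries fall from above 0 in short genes to between -1.51 and -1.36 in genes over 500 kb, while the erlotinib libraries stay between -0.11 and 0.36.

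Repeat reads were compared on the same scale of gene reads. Transposons are relics of mobile elements that heterochromatin keeps mostly silent, and LINE-1 (L1) is the only autonomous family known to be active in humans. Of 1079 repeat subfamilies 132 (12.2%) were higher with erlotinib and 577 (53.5%) lower, and of 57 families 3 (5.26%) were higher and 31 (54.4%) lower. Reads from transposons and satellites made 1.48, 1.45 and 1.45 per 100 gene reads with erlotinib, 1.85, 1.84 and 1.78 with carboplatin and 1.19, 1.22 and 1.195 in parental cells (exact permutation p = 0.1, 2-sided, between drugs). This measure took every family except those named for ribosomal, transfer and other structural RNAs. Simple, low-complexity and unknown repeats were therefore in it too. Reads of ribosomal RNA repeats varied more between libraries, from 0.481 to 3.56 per 100 gene reads, and were highest in replicate a with carboplatin. Repeat reads can come from repeats inside gene transcripts as well as from repeats transcribed on their own, and these tables do not separate them.

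The called families were mostly lower with erlotinib by small amounts. The 3 that were higher were the low-complexity repeats (0.44 ± 0.05) and the classes annotated with a question mark as ERV1? (0.88 ± 0.11) and DNA? (0.77 ± 0.08). L1 differed by -0.29 ± 0.05 (adjusted p = 0.00074), Alu by -0.38 ± 0.04 and ERVK, which includes the youngest endogenous retroviruses, by -0.18 ± 0.03. When libraries were scaled to their transposon and satellite reads, an alternative chosen after seeing the data, L1 stood at 0.013, Alu at -0.074 and ERVK at 0.13. L1HS, the L1 subfamily that still moves, read 51.2, 51.2 and 55.4 CPM with erlotinib, 64.4, 66.3 and 60.04 with carboplatin and 52.99, 56.2 and 53.6 in parental cells, a difference of -0.27 ± 0.05. L1PA2 did not pass the test (-0.00 ± 0.04, adjusted p = 0.99; 95% interval -0.09 to 0.09), and L1PA3 and L1PA4 differed by -0.22 ± 0.04 and -0.44 ± 0.04. Scaled to transposon and satellite reads, L1HS stood at 0.032, L1PA2 at 0.30 and L1PA3 at 0.080, and 260 subfamilies were higher and 313 lower with erlotinib. On that scale L1PA2 was called higher, L1HS and L1PA3 were not called, and L1PA4 was still lower, at -0.14.

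A few repeats differed more. HERVK13-int, the internal part of an endogenous retrovirus, read 5.34, 5.102 and 4.95 CPM with erlotinib, 38.9, 37.1 and 36.8 with carboplatin and 7.59, 7.32 and 7.56 in parental cells, and HERV9-int read 1.59, 1.76 and 1.52, 6.41, 6.58 and 5.73 and 1.79, 1.71 and 1.87 in the same order. In both only the carboplatin libraries stood apart upward. LTR22B1 was highest with erlotinib, at 11.2, 10.4 and 9.95 CPM against 2.08, 2.17 and 2.403 with carboplatin, and LTR26E differed by 2.67 ± 0.13. PiggyBac elements and the family labelled telo were lower with erlotinib by -1.38 ± 0.08 and -1.38 ± 0.07, and the family labelled centr by -0.63 ± 0.04. The small RNA repeats 7SK, U1 and U3 were also called lower with erlotinib, but replicate b of parental cells and replicate a with carboplatin stood far above the other libraries of their groups, at 15.3 and 33.8 CPM for 7SK.

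**Figure D5:**
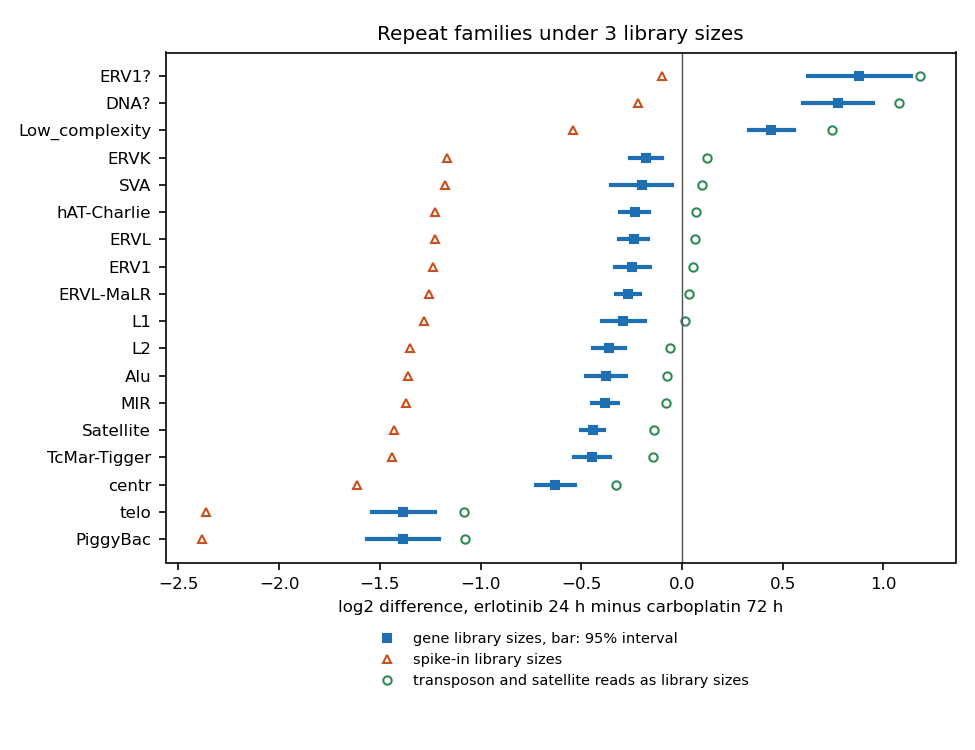
Log2 difference, erlotinib minus carboplatin, of 18 repeat families with library sizes from genes (squares, 95% interval), from spike-ins (open triangles) and from transposon and satellite reads (open circles). With library sizes from genes 15 lie below 0 and 3 above; with transposon and satellite reads L1 lies at 0.013 and PiggyBac at -1.08.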

How the data were processed

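RNA sequencing of 9 of the 18 libraries was used: 3 each of parental cells, cells with erlotinib and cells with carboplatin, grouped by their titles. Per the submitters' processing notes, Salmon gave the deposited values, which are expected counts per gene, repeat name (called subfamily), repeat family, repeat class and ERCC spike-in; no version, genome build, annotation or use of strand is stated, so overlapping and antisense genes cannot be told apart. A further 3 columns in each table fit no sample title and were left aside. Identifiers without a symbol took at most 0.26% of gene reads. The other groups were left out of the fit, and a fit of all 18 libraries was an alternative.

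Expected counts were rounded and filtered with filterByExpr in edgeR 4.0.16 (R 4.3.3), which left 16783 genes and 1079 subfamilies. Families were not filtered by level, and all 57 with any reads were tested. The quasi-likelihood F-test used 1 coefficient for every group, which left 6 residual degrees of freedom (biological coefficient of variation 0.0573 for genes), with TMM library sizes from genes for genes and repeats alike, and p-values adjusted by Benjamini and Hochberg. Spike-in and read shares were compared by 2-sided exact permutation tests. Gene lists (45 lists, 830 genes, 771 tested) are described by counts and medians. The groups, lists and rules were chosen with earlier results of these data known. Named genes were the 12 largest differences in each direction, up to 4 per list with the smallest p, 6 in each direction on either side of parental cells or moving alike, and a fixed few; other list members are given as examples. Of the NF-kB motif forms planned for the promoters only the 9-base form was searched. Promoters came from RefSeq and gene spans from GENCODE release 29. Alternatives were DESeq2 1.42.0, other library sizes, filters and sample sets, a replicate block, and leaving out each library. Some genes are not reported here.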

Additional observations from a re-analysis of the deposited data

How the results depend on the processing

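Counts of genes called between drugs stayed within 1.5 times of the reported 6670 higher and 7187 lower under every alternative except spike-in scaling, which gave 2442 higher and 12151 lower; for carboplatin against parental cells it gave 11619 higher and 1625 lower. Leaving out one library at a time gave 6477 to 6757 higher and 6994 to 7322 lower. With a replicate block for the shared letters a, b and c there were 6699 higher and 7178 lower. Deviations of libraries with the same letter correlated between -0.286 and 0.387, and those with other letters between -0.396 and 0.29. Of 9 libraries 3 correlated best with their own letter. These values show no pairing by letter, but with 3 libraries per group they cannot settle whether there was one. For genes DESeq2 gave 6802 higher and 6688 lower, and the 18-library fit 5874 higher and 6004 lower. In the 18-library fit 5 of 166 named genes lost their call, in the direction they had, and with spike-ins 6 did. NKX2-1, called lower with erlotinib in the reported fit, lost its call with the replicate block, with DESeq2 size factors and without replicate a or c of either drug. Calls were gained by GABARAPL1 under 8 alternatives and by IFI6, JUNB, NFE2L2 and BTC under 1 each, not counting spike-in scaling. TNFRSF10C lost its call with DESeq2, in the 18-library fit, without replicate c of erlotinib and without replicate b of carboplatin. Spike-in scaling turned the sign of 15 named genes, APOBEC3B -0.71, BCL2L11 -0.27, CDKN1B -0.051, CDKN2B -0.51, EGFR -0.45, ERCC5 -0.024, FANCC -0.24, FOXO4 -0.58, GABARAPL1 -0.90, IFI6 -0.77, JUNB -0.83, LRP8 -0.83, NFE2L2 -0.96, SETDB1 -0.19 and SLC2A1 -0.10, of list medians, namely FOXO targets and PI3K brakes -0.16, Damage response: metabolism and repair -0.92, Platinum transport and thiol defence -0.56, NRF2 targets -0.16, NF-kB core and feedback -0.76, Antigen presentation -0.23, Cholesterol synthesis -0.29, Fatty acid synthesis -0.30, Lysosome and autophagy -0.84, Keratins -0.071, Mesenchymal and EMT -0.67, YAP and TEAD targets -0.63, Aldehyde dehydrogenases -0.089, APOBEC3 and retroelement restriction -0.89, Lung lineage factors -0.15, Endothelial markers -0.77 and Leukocyte markers -0.79, and of families, namely DNA? -0.22, ERV1? -0.10 and Low_complexity -0.54. List medians near 0 also turned with the 6 libraries alone, ATF4 and ER stress 0.0020 and Ribosomal proteins 0.0092, with DESeq2, ATF4 and ER stress 0.0064 and Ribosomal proteins 0.013, with its size factors, ATF4 and ER stress 0.0064 and Ribosomal proteins 0.013, and, in the Interferon and sensor pathway list, without replicate b of carboplatin, where leaving out single libraries gave -0.053 to 0.038. Without a change of sign, list medians moved by more than the replicate spread in 5 of 45 lists with the 6 libraries alone, 6 with DESeq2, 5 with its size factors, 2 in the 18-library fit, 7 without replicate c and 4 without replicate b of carboplatin, 3 without replicate a of erlotinib, and at most 1 without any other single library. Repeat subfamilies numbered 74 higher and 327 lower in the 18-library fit, 30 higher and 975 lower with spike-ins, 79 higher and 16 lower with repeat reads and 260 higher and 313 lower with transposon and satellite reads. Families numbered 2 higher and 19 lower, 0 higher and 52 lower, 3 higher and 3 lower and 16 higher and 12 lower in the same order. With repeat reads the families that turned were L1 0.35, Alu 0.29, L2 0.29, MIR 0.27, ERV1 0.41, ERVK 0.47, ERVL 0.41, ERVL-MaLR 0.38, SVA 0.46, Satellite 0.21, centr 0.030, TcMar-Tigger 0.20 and hAT-Charlie 0.41, and the subfamilies L1HS 0.37, L1PA3 0.42 and L1PA4 0.21. With transposon and satellite reads they were L1 0.013, ERV1 0.057, ERVK 0.13, ERVL 0.063, ERVL-MaLR 0.035, SVA 0.10 and hAT-Charlie 0.068, and L1HS 0.032, L1PA2 0.30 and L1PA3 0.080. The median of genes over 500 kb was 2.31 in the 18-library fit, 2.24 in the fit without replicate a of both TSA groups, 1.42 with spike-ins, 1.76 without a filter and 2.14 for genes of at least 1 CPM in parental cells. The log2 difference in spike-in share ranged from 0.84 to 1.03 without one library and was 0.98 over gene plus repeat reads. The cause of these changes was not tested. Genes with few reads in one group, such as NAALADL2 and CSF3, are limited by counting error.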

Other observations

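Proteases, serpins and matrix enzymes were split: of 24 tested, 11 were higher with erlotinib and 13 lower. MMP13, a collagenase, read 34.8, 34.6 and 35.1 CPM with erlotinib, 0.212, 0.157 and 0.211 with carboplatin and 0.358, 0.565 and 0.404 in parental cells, and MMP7, matrilysin, differed by 6.27 ± 0.20. SERPINB2, the inhibitor of urokinase, was lower with erlotinib by -4.62 ± 0.09 and SERPINB5, maspin, higher by 2.22 ± 0.04. Lysosome and autophagy genes were mixed, 12 higher and 6 lower of 24; MAP1LC3B, which marks autophagosomes, read 74.02, 69.5 and 68.8 CPM with erlotinib, 203, 210.5 and 197 with carboplatin and 56.8, 56.1 and 57.4 in parental cells. Glycolysis and hypoxia genes were lower with erlotinib in 17 of 24 cases; NDRG1 differed by -0.89 ± 0.03 and PFKFB4, which sets the level of an activator of glycolysis, by -1.74 ± 0.06, while the glucose transporter SLC2A1 was higher by 0.88 ± 0.04.

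Regulators of heterochromatin and of L1 were lower with erlotinib in 13 of 24 cases, 3 by at least 2-fold, and higher in 8. Of all genes 42.8% were lower and 39.7% higher. HELLS, a remodeller needed for DNA methylation, differed by -2.06 ± 0.05, SUV39H2, a methyltransferase of histone H3 lysine 9, by -2.03 ± 0.06, and CBX3, a heterochromatin protein, by -0.98 ± 0.04; SETDB1 was higher by 0.80 ± 0.04. Among 15 restriction factors 8 were higher and 6 lower. APOBEC3F differed by 2.20 ± 0.05, and APOBEC3B, the cytidine deaminase with the highest counts of the family here, was above the parental level by 1.63 ± 0.04 with erlotinib and 1.35 ± 0.04 with carboplatin. The targets of YAP and TEAD were split, 9 higher and 6 lower of 16, with ANKRD1 lower by -2.72 ± 0.05 and CRIM1 higher by 1.32 ± 0.03. Of 12 lung lineage factors 8 were higher with erlotinib; FOXA1 differed by 1.97 ± 0.04.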
